A study of Mus musculus with 12 samples.

Results

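Mouse small-intestinal epithelium given butyrate and IL-13 together was set against untreated epithelium, across all expressed genes. The comparison rests on 6 of the 12 libraries of the series, 3 of enteroids given both agents and 3 of untreated enteroids, chosen by the treatment their labels give. Of 18068 genes in the deposited table, 13750 passed a filter on low counts and were tested. Enteroids are cultures of intestinal epithelium, here grown from the ileum of wild-type C57Bl/6 mice, so every group shares that strain, tissue and culture medium. The groups were butyrate + IL-13 (1 mM butyrate for 48 h and 20 ng/mL IL-13 for 72 h), IL-13 alone (20 ng/mL for 72 h), butyrate alone (1 mM for 48 h) and untreated enteroids, with 3 libraries each. The groups given a single agent entered the same fit, and their values stand beside those of both agents where the groups are set side by side. Cultures of this kind hold epithelium without the immune, nerve and vessel cells that surround it in an animal, and the labels do not say how many mice the enteroids came from or whether replicates were separate cultures. The p-values therefore reflect no more than the spread among these libraries, which could be technical.

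Butyrate, a short-chain fatty acid, is made by gut bacteria from dietary fibre. It feeds epithelial cells and inhibits histone deacetylases, the enzymes that remove acetyl groups from histones. IL-13, a cytokine, belongs to type 2 immunity, the response to worms and allergens. It binds a receptor made of IL-4Rα and IL-13Rα1 on epithelial cells and acts through the transcription factor STAT6, which in the intestine is known to expand tuft cells, the chemosensory cells of the epithelium, and mucus-making goblet cells.

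Library totals were 13867982 to 15618074 counts with butyrate + IL-13, 14239405 to 15008598 with IL-13, 17006538 to 24294456 with butyrate and 16303915 to 22558599 in untreated enteroids. Levels below are counts scaled to a common library size (CPM) after normalisation by TMM, the trimmed mean of M-values. They show the share of RNA in a library, and in such bulk samples fewer cells of a type and less RNA per cell cannot be told apart. The epithelial markers, such as Cdh1 and Epcam, summed to 12900 to 13400 CPM with butyrate + IL-13 and 10200 to 10500 CPM in untreated enteroids, which fits the labelled cell type. The third butyrate + IL-13 library stood apart in Lars2, the gene of mitochondrial leucyl-tRNA synthetase, with 6983 CPM against 1064 and 1094 CPM in the other two. The second butyrate library had 5048 CPM, and the other 10 libraries of the series ran from 423 to 1434 CPM.

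Most of the tested genes differed between enteroids given both agents and untreated ones. The deposited table kept only rows with a corrected p below 1 for untreated against IL-13. Genes alike in those 2 groups may therefore be missing, and the shares below are of the genes kept. A gene was called when its edgeR quasi-likelihood p, adjusted by the Benjamini-Hochberg method over all 13750 genes, was under 0.05, and 8205 genes (59.7%) were. Of these, 3877 (28.2%) were higher and 4328 (31.5%) lower with butyrate + IL-13. Many of the changes were small, since 5451 called genes moved by under 2-fold. At least 2-fold changes were found in 1013 genes that were higher and 1741 that were lower, together 20.0% of those tested. At least 4-fold changes were found in 280 and 582 genes, and at least 16-fold changes in 51 and 66. The CPM of the 3 treated and the 3 untreated libraries did not overlap in 9098 genes (66.2%). The median log2 fold change of all tested genes was -0.05. Without the third butyrate + IL-13 library, the one high in Lars2, 3772 genes were higher and 3637 lower.

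A gene not called may have stayed where it was or may be measured too loosely to say. It was therefore counted as near the untreated level only when the 95% interval of its fold change, from the fit, lay wholly within 1.5-fold in either direction. By that rule 3462 genes (25.2%) were near, and 2083 (15.1%) were left undetermined. The undetermined genes were mostly faint, with a median level of 1.82 CPM over both groups, against 43.6 CPM for the near genes, 69.8 CPM for those that rose and 18.5 CPM for those that fell. A further 1218 genes were called although their interval lay inside 1.5-fold, so a call does not by itself mark a large change.

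**Figure D1:**
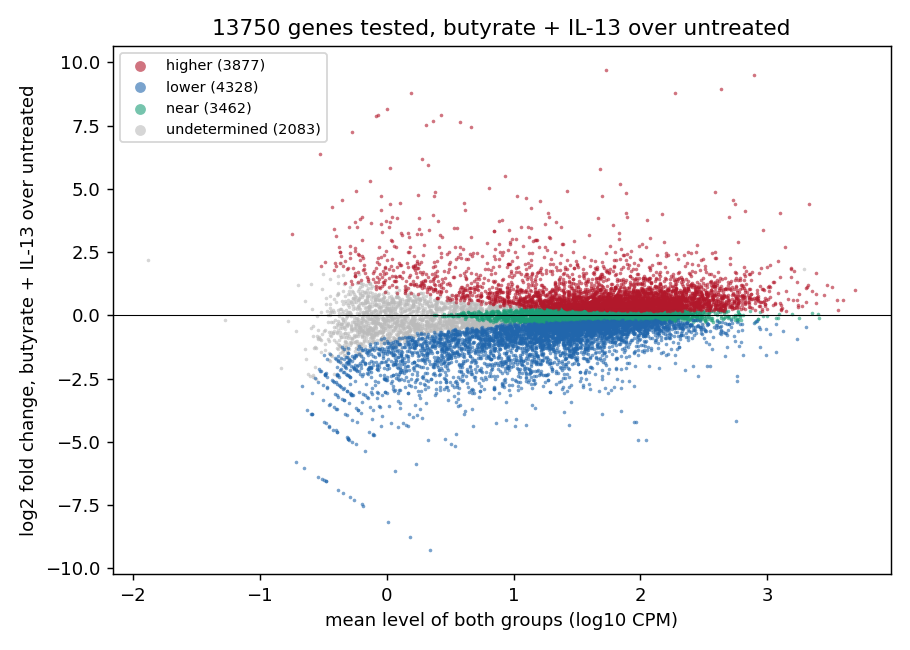
Each point is 1 of 13750 genes, placed by the mean level of both groups (log10 CPM, x axis) and by the log2 fold change of butyrate + IL-13 over untreated (y axis), and coloured as higher (3877), lower (4328), near the untreated level (3462) or undetermined (2083). The undetermined genes lie at the faint end, and the widest changes run to about 10 log2 units upward.

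The genes with the largest changes are given from those with a mean of at least 50 counts over the 6 libraries and groups that did not overlap, predicted genes left out. Those that rose most were led by the gasdermin C family and a phospholipase. Gsdmc2, Gsdmc3 and Gsdmc4 encode gasdermins, pore-forming proteins of epithelial cells, and lie side by side on chromosome 15 (Gsdmc2 at chr15:63824346-63835949, Gsdmc3 at chr15:63858271-63869297 and Gsdmc4 at chr15:63891265-63902936, mm10). Gsdmc4 stood at 971, 879 and 743 CPM with butyrate + IL-13, against 1.85, 1.86 and 1.44 CPM in untreated enteroids. The log2 fold change was 8.95 ± 0.31 (SE; edgeR adjusted p = 9.32e-14), and those of Gsdmc3 and Gsdmc2 were 9.70 ± 0.66 and 8.81 ± 0.31. These genes are close copies and may have shared or lost reads in counting, so their single levels are uncertain. Pla2g4c, a cytosolic phospholipase A2 gene (chr7:13324655-13360672), had 1930, 1598 and 1212 CPM with both agents and 2.40, 2.15 and 1.94 CPM without. Every treated library was thus far above every untreated one, with a log2 fold change of 9.50 ± 0.32 (edgeR adjusted p = 1.77e-13).

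Slc28a1, a sodium-coupled nucleoside transporter, was nearly silent without treatment. It had 11.2, 9.24 and 7.24 CPM with butyrate + IL-13 and 0.126, 0 and 0 CPM in untreated enteroids. That is 357 counts against 3, a ratio of 204 after scaling (95% counting interval 69.1 to 992, which covers counting error only); its fitted log2 fold change was 7.47, 10.29 without untreated replicate 1 and 6.87 without untreated replicate 2. Fn1, which encodes the matrix protein fibronectin, had 74.9, 106 and 104 CPM with both agents and 1.85, 1.42 and 1.94 CPM in untreated enteroids (log2 fold change 5.78 ± 0.22, edgeR adjusted p = 9.76e-14). Cldn9, a tight junction claudin, averaged 16.7 ± 3.55 CPM with both agents and 0.368 ± 0.0656 CPM without (SD, n = 3 each). Capn13, a calpain protease gene, averaged 134.5 ± 10.6 and 3.66 ± 0.12 CPM, and Car4, a membrane carbonic anhydrase, 50.9 ± 1.52 and 1.65 ± 0.489 CPM, each in the same order. The log2 fold changes of these 3 genes were 5.50, 5.20 and 4.91. Tpbgl, the remaining gene among the 12 that rose most apart from Duoxa1 and Duoxa2, stood at 5.03.

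Duoxa2 and Duoxa1, the maturation factors of the dual oxidases that release hydrogen peroxide at the epithelial surface, closed the list of 12. Duoxa2 had 715, 792 and 723 CPM with butyrate + IL-13, against 22.7, 25.2 and 28.4 CPM in untreated enteroids (log2 fold change 4.87 ± 0.11, edgeR adjusted p = 1.21e-15). Duox2, the oxidase it serves, had 958, 1070 and 1073 CPM against 39.4, 49.3 and 42.9 CPM (log2 fold change 4.56 ± 0.09, edgeR adjusted p = 9.01e-16). The spread among treated libraries was small beside either gap. Duoxa1 (chr2:122302191-122313730, minus strand) overlaps Duoxa2 (chr2:122298900-122302885, plus strand), and the sources used here do not say whether counting used strand, so the log2 fold change of Duoxa1, 4.85 ± 0.14, may share reads with its neighbour.

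Among the 12 genes that fell most were a bile acid enzyme, mucosal defence genes and regulators of secretory cells. Dmbt1, a scavenger receptor secreted at mucosal surfaces, had 9.09, 6.05 and 5.70 CPM with butyrate + IL-13 and 198, 234 and 209 CPM in untreated enteroids, a log2 fold change of -4.94 ± 0.26 (edgeR adjusted p = 2.73e-11). Clca3b, a relative of the calcium-activated chloride channel regulators, had 7.12, 5.18 and 5.70 CPM against 183.5, 182 and 186 CPM (log2 fold change -4.94 ± 0.16, edgeR adjusted p = 2.81e-14). In both genes the treated libraries lay far under the untreated ones and close to each other. Cyp2c70, the enzyme that makes the muricholic bile acids of mice, was at 0.237, 0.319 and 0 CPM with both agents and 7.15, 5.87 and 5.82 CPM without. Its log2 fold change was -5.07 ± 0.63, -5.70 without butyrate + IL-13 replicate 2 and -4.43 without replicate 3 of that group.

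Agr2, a protein disulfide isomerase needed to make mucin, stood at 12.02, 9.24 and 6.14 CPM with butyrate + IL-13 and 137, 170 and 195 CPM in untreated enteroids (log2 fold change -4.20 ± 0.18, edgeR adjusted p = 2.67e-12). Neurog3, the transcription factor that starts the enteroendocrine lineage, averaged 0.44 ± 0.248 CPM with both agents and 9.17 ± 1.55 CPM without (log2 fold change -4.37 ± 0.41, edgeR adjusted p = 2.98e-09). The others given here were Rgcc, a regulator of the cell cycle, Id4, an inhibitor of basic helix-loop-helix factors, St6gal1, a sialyltransferase, Prelp, a matrix proteoglycan, Eldr, a long noncoding RNA, and Slc14a1, a urea transporter. Their log2 fold changes ran from -5.16 for Rgcc to -4.22 for Slc14a1. That of Id4, -4.89, was -5.48 without butyrate + IL-13 replicate 1 and -4.25 without replicate 3, and its treated libraries held 4, 3 and 0 counts. These levels near 0 are close to the depth of the libraries, so the exact size of such falls is loosely set.

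**Figure D2:**
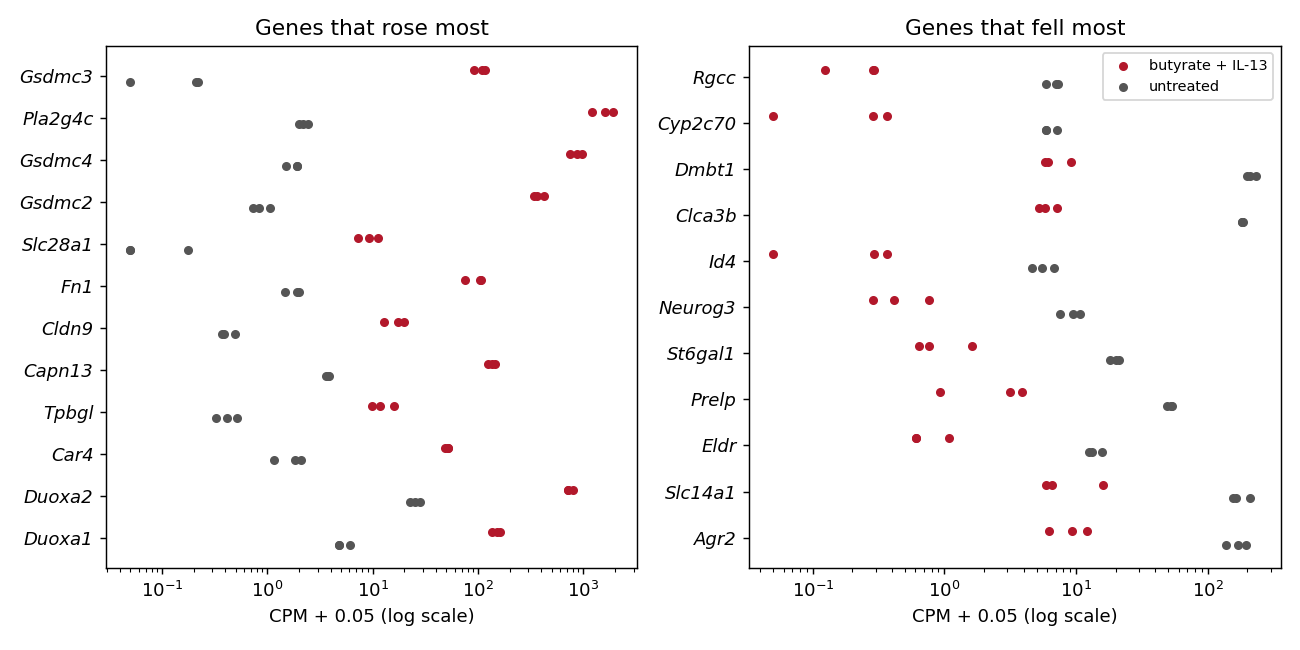
Levels of the 12 genes that rose most (left) and 11 of the 12 that fell most (right), as CPM + 0.05 on a log axis, with 1 point for each of the 3 butyrate + IL-13 libraries (red, upper) and the 3 untreated libraries (grey, lower). The treated and untreated points do not overlap in any of the 23 genes, since the choice of genes required it.

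Most genes of a list of known IL-13 and STAT6 targets stood above the untreated level. The list was chosen with earlier results of these data known. It holds near-identical Sprr2a copies, so its members are not all independent. Of 21 tested members of that list, 17 rose and 1 fell, and the median log2 fold change was 3.18, also with Chil4 at its bound given below. Over all tested genes 28.2% rose and 31.5% fell, with a median of -0.05. With IL-13 alone 17 of the list rose and with butyrate alone 0 did, where 21.8% and 5.14% of all tested genes rose. Sprr2a3, a small proline-rich protein of stressed epithelium, had 4333, 3808 and 4030 CPM with butyrate + IL-13 and 203, 191 and 180.5 CPM in untreated enteroids (log2 fold change 4.40 ± 0.10, edgeR adjusted p = 1.99e-15). Its reads may be shared with the near-identical Sprr2a1 and Sprr2a2. Il4ra, the receptor chain shared with IL-4, had 131, 139 and 135 CPM against 57.3, 56.3 and 56.1 CPM (2.39-fold, edgeR adjusted p = 2.1e-09). Il13ra1, the chain that binds IL-13, rose less, with a log2 fold change of 0.51 ± 0.11 (edgeR adjusted p = 0.000814). Stat6 itself was near the untreated level, at 234, 238 and 234 CPM against 240, 240 and 234 CPM, a log2 fold change of -0.02 with a 95% interval of -0.16 to 0.12. Chil4, a chitinase-like protein gene, had 67 counts over the treated libraries and 0 over the untreated ones, which is at least 38.2-fold higher when the untreated group is set to a floor of 3 counts. Ccl24, an eosinophil chemokine, was the member that fell, on few counts: 0, 0.159 and 0.0731 CPM with both agents and 0.757, 0.567 and 0.332 CPM without (log2 fold change -2.76, edgeR adjusted p = 0.0136). Without butyrate + IL-13 replicate 1 it was not called (-2.19, edgeR adjusted p = 0.060), and without replicate 2 it stood at -3.66.

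Most interferon-stimulated genes and most tested MHC class II genes rose as well. Of 36 tested members of the interferon list 32 rose, 0 fell and 3 were near, where the shares of all tested genes were 28.2%, 31.5% and 25.2%. The median log2 fold change of the list was 1.32. With IL-13 alone 6 rose and with butyrate alone 30 did, where 21.8% and 5.14% of all tested genes rose. Oas3, an enzyme that senses double-stranded RNA, had 29.0, 44.8 and 55.5 CPM with butyrate + IL-13 and 5.30, 13.9 and 8.70 CPM in untreated enteroids. The groups were apart despite a wide spread within each (log2 fold change 2.21 ± 0.25, edgeR adjusted p = 8.46e-07). Irf7, a transcription factor that amplifies the interferon response, had 101, 146 and 142 CPM against 30.1, 44.8 and 41.0 CPM (log2 fold change 1.75 ± 0.16, edgeR adjusted p = 4.67e-08). Oasl1 and Oasl2, relatives of Oas3, stood at 2.37 ± 0.14 and 1.92 ± 0.19 on the log2 scale, and Trim30a, an interferon-induced TRIM protein, at 1.92, or 2.65 without untreated replicate 2. The largest change was that of Ifi27l2a, at 4.46 ± 0.40, with a mean of 7.74 CPM with both agents and 0.348 CPM without. The 3 near members were Bst2, Parp9 and Dtx3l, and Mx2 was undetermined. In Oas3, Oasl1, Oasl2, Isg15 and Ifit1 the highest treated library was the one high in Lars2; its part in their rise was not tested, but all 5 genes were called without it.

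Cd74, the invariant chain that guides MHC class II to the endosome, had 15.03, 18.6 and 12.1 CPM with butyrate + IL-13 and 0.631, 1.13 and 1.61 CPM in untreated enteroids (log2 fold change 3.79 ± 0.31, edgeR adjusted p = 5.04e-09). H2-Eb1 and H2-Ab1, the class II beta chains, averaged 12.8 ± 2.94 and 7.83 ± 1.30 CPM with both agents and 1.22 ± 0.488 and 1.53 ± 0.535 CPM without. H2-DMa, which loads peptides, was the weakest of the 4 that rose, at a log2 fold change of 0.63 (edgeR adjusted p = 0.0283), and was not called without untreated replicate 3 (0.48) or butyrate + IL-13 replicate 2 (0.43). H2-DMb1 was undetermined at 1.14 (95% interval -0.05 to 2.32), and was called without untreated replicate 3 (1.62) or butyrate + IL-13 replicate 3 (1.56). Of 5 tested class II genes 4 thus rose and 0 fell, where 28.2% and 31.5% of all tested genes did. Ciita, a member of the list that was not tested, went the other way, with 1 count over the treated libraries and 17 over the untreated ones. After scaling it was 9.94-fold lower (95% counting interval 1.56 to 415, which covers counting error only). Immune cell markers summed to 31.6 to 34.6 CPM with both agents and 27.0 to 30.9 CPM in untreated enteroids. Of 4 tested, Cd68 was called, at 5.22, 3.98 and 7.02 CPM against 2.35, 2.51 and 2.60 CPM, and whether such cells bear on the class II genes was not tested.

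Because members of these lists moved together, the promoters of Sprr2a3, Oas3 and Isg15 are shown, the last chosen after its values were seen. They are from RefSeq on GRCm38.p6, run from 250 bases before to 50 after the gene start, and read 5′ to 3′ on the gene's strand. Capitals mark the palindrome STAT6 is known to bind in Sprr2a3 (TTC, any 4 bases, GAA), and the core of the interferon-stimulated response element in Oas3 and Isg15 (GAAA, any 2 bases, GAAA). Sprr2a3 lies at chr3:92285054-92285353 on the plus strand, Oas3 at chr5:120777610-120777909 and Isg15 at chr4:156200769-156201068, both on the minus strand.
Sprr2a3: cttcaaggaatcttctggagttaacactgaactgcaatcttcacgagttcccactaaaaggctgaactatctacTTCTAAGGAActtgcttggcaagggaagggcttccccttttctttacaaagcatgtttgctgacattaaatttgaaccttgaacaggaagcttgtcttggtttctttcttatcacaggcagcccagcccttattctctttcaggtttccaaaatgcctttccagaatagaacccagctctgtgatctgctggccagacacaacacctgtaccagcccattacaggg
Oas3: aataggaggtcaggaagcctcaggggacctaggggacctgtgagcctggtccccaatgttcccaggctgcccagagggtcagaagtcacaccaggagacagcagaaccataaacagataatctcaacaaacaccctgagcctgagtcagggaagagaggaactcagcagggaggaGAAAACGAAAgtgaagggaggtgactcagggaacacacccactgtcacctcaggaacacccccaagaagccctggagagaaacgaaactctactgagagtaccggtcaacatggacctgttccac
Isg15: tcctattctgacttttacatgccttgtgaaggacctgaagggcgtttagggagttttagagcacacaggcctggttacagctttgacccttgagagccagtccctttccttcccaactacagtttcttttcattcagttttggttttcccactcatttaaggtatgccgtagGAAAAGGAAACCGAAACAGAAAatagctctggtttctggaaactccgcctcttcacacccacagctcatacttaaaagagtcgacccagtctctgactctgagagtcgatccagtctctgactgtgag
Searched on both strands, the response element was found once in Oas3, 75 bases before the start, and in Isg15 as 3 overlapping copies from 78 bases before it. The STAT6 palindrome of Sprr2a3 begins 176 bases before the start. Of the 25 interferon list genes with a promoter in the table, 14 held the response element and 7 the STAT6 palindrome, and in 2 genes the motifs overlapped one another. Of 15 genes of the IL-13 and STAT6 list, 3 held the palindrome, all Sprr2a copies, and 2 the response element. Over all 32851 promoters of this length, from 27025 genes, 7.0% held the palindrome and 3.4% the response element. These shares are by promoter, while a list gene was counted when any of its promoters matched, so the units differ. Of the 12 genes that rose most, 8 had a promoter in the table, and Slc28a1 alone held a palindrome. A match is a description of these letters only. Isg15, a ubiquitin-like protein, had 15.7, 23.1 and 28.5 CPM with both agents and 1.68, 6.08 and 4.38 CPM without (log2 fold change 2.47 ± 0.32, edgeR adjusted p = 3.18e-06).

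Genes of the secretory lineages were mostly lower. Of 23 tested goblet cell genes 20 fell and 2 rose (median log2 fold change -1.56), where 31.5% and 28.2% of all tested genes did. IL-13 alone lowered 8 and butyrate alone 10, where they lowered 21.7% and 2.76% of all tested genes. Zg16, a lectin-like protein of goblet granules, had 45.9, 38.6 and 93.0 CPM with butyrate + IL-13 and 770, 1192 and 1263 CPM in untreated enteroids (log2 fold change -4.18 ± 0.30, edgeR adjusted p = 2.08e-07). Muc2, a mucin that forms the mucus gel, had 21.8, 21.2 and 16.3 CPM against 23.96, 52.0 and 49.6 CPM. The untreated library 1 was close to the treated ones, yet the log2 fold change of -1.08 ± 0.21 was called (edgeR adjusted p = 0.000317). Atoh1 and Spdef, the transcription factors that specify secretory and goblet cells, stood at -2.45 ± 0.14 and -2.09 ± 0.18. The members that rose were Fut2, a fucosyltransferase, at 124, 118 and 119 CPM against 10.6, 16.4 and 18.3 CPM, and Clca1, a secreted goblet protein, at 866, 735 and 770 CPM against 379, 499 and 508 CPM. With IL-13 alone Clca1 reached 1504, 1421 and 1327 CPM, so enteroids given both agents lay between the other groups.

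Of 12 tested Paneth cell genes 9 fell and 2 rose (median log2 fold change -1.09), where 31.5% and 28.2% of all tested genes did. Mmp7, the protease that matures alpha-defensins, had 28.3, 24.8 and 16.7 CPM with butyrate + IL-13 and 111, 153 and 156 CPM in untreated enteroids (log2 fold change -2.59 ± 0.19, edgeR adjusted p = 4.26e-09). Wnt3, the Wnt ligand Paneth cells give to stem cells, averaged 1.11 ± 0.214 CPM with both agents and 8.37 ± 1.247 CPM without. Ang4, an antimicrobial ribonuclease, was one of those that rose, with a log2 fold change of 0.70 ± 0.15 (edgeR adjusted p = 0.000647). Nupr1, a stress-induced chromatin protein in the same list, was the other, at 1.05 ± 0.11. Enteroendocrine genes fell almost throughout, 30 of 31 tested, with a median of -2.02. IL-13 alone lowered 3 of them and raised 6, where 21.7% of all tested genes fell and 21.8% rose. Butyrate alone lowered 24, where 2.76% of all tested genes fell. Chga, chromogranin A of hormone granules, had 28.3, 21.5 and 18.7 CPM with both agents and 128, 175 and 165 CPM without (log2 fold change -2.77 ± 0.15, edgeR adjusted p = 6.68e-11). Chgb and Neurod1, a second granin and a lineage transcription factor, stood at -2.39 ± 0.16 and -2.01 ± 0.23. Cpe, carboxypeptidase E, which trims prohormones, was the exception at 1.72 ± 0.09, with 218, 198 and 238 CPM against 62.7, 65.6 and 70.8 CPM.

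Tuft cell genes gave no common direction. Of 29 tested, 6 rose, 6 fell, 2 were near and 15 were undetermined. The shares of all tested genes were 28.2%, 31.5%, 25.2% and 15.1%, in that order. The median log2 fold change of the list was -0.19. Without untreated replicate 3 the number that fell was 3, and without butyrate + IL-13 replicate 3 it was 2. The same list had a median of 1.87 with IL-13 alone, where 22 rose, and of -1.05 with butyrate alone, where 11 fell. Of all tested genes, 21.8% rose with IL-13 and 2.76% fell with butyrate. Dclk1, the kinase most used to mark tuft cells, had 6.01, 6.13 and 5.70 CPM with butyrate + IL-13 and 6.81, 6.73 and 8.70 CPM in untreated enteroids. Its log2 fold change was -0.31 with a 95% interval of -0.91 to 0.29 (edgeR adjusted p = 0.359), so the interval holds both a fall past 1.5-fold and a small rise. With IL-13 alone it stood at 26.5, 30.3 and 24.2 CPM, above every library of the other 3 groups. Pou2f3, the tuft lineage factor, and Trpm5, the cation channel of taste signalling, were also undetermined, at -0.18 (-1.10 to 0.74) and -0.44 (-1.01 to 0.13); Trpm5 was called lower, at -0.67, without untreated replicate 1.

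Of the tuft genes that rose, Plcg2, a phospholipase C, had a log2 fold change of 1.54 ± 0.21 (edgeR adjusted p = 4.69e-06) and Avil, the actin-binding advillin, 1.04 ± 0.26 (edgeR adjusted p = 0.00207). Nrgn, which encodes neurogranin, fell most clearly, with 1.42, 0.717 and 0.512 CPM against 5.93, 6.28 and 6.65 CPM, and Gng13, a G protein subunit of taste signalling, stood at -2.60 ± 0.53. The others given here were Alox5, Bmx and Ptpn6, which rose, and Sh2d7, Spib, Matk and Vav1, which fell. The calls of Bmx, Sh2d7, Spib, Matk and Vav1 were each lost without single libraries. That of Matk was also lost under thinning and in the fit of the compared groups only. That of Vav1 was also lost under DESeq2, without a filter on low counts, with the replicate block and under thinning. The 2 near genes were Fyb and Tas1r3.

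Stem cell and proliferation genes were lower. All 33 tested proliferation genes fell (median log2 fold change -1.86), and IL-13 alone lowered all 33 while butyrate alone lowered 0, where 21.7% and 2.76% of all tested genes fell. Mcm2 and Mcm6, subunits of the replicative helicase, stood at -2.86 ± 0.13 and -3.06 ± 0.14. Mki67, the proliferation marker Ki-67, had 73.1, 81.9 and 81.7 CPM with butyrate + IL-13 and 294, 291 and 295 CPM in untreated enteroids (log2 fold change -1.89 ± 0.14, edgeR adjusted p = 2.14e-09). Of 19 stem cell genes 14 fell and 2 rose (median -0.75), where 31.5% and 28.2% of all tested genes did. Olfm4, a secreted stem cell marker, had 2.53, 2.23 and 1.75 CPM against 24.7, 26.4 and 30.2 CPM (log2 fold change -3.64 ± 0.25, edgeR adjusted p = 2.68e-10). Axin2, a target of Wnt signalling, stood at -2.25 ± 0.12. Msi1 and Ephb3, an RNA-binding protein and an ephrin receptor, rose by 1.10 and 0.70 on the log2 scale, and Prom1 and Cd44 were near. Cdkn1a, the cell cycle inhibitor p21, had 1968, 2038 and 1978 CPM with both agents and 435, 448 and 446 CPM without, a log2 fold change of 2.17 ± 0.07 (edgeR adjusted p = 1.72e-13). Of the 19 tested genes of the p53 list that holds it, 11 rose, 1 fell (2 without butyrate replicate 2) and 4 were near, with a median of only 0.32; Gdf15, a stress cytokine, stood at 2.27 ± 0.13.

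Genes of absorptive enterocytes were mostly higher, 25 of 34 tested, with a median log2 fold change of 0.81. A further 5 fell, 3 were near and Treh was undetermined. Of all tested genes 28.2% rose, 31.5% fell and 25.2% were near. Nt5e, the ectoenzyme that makes adenosine, had 305, 229 and 277 CPM with butyrate + IL-13 and 35.7, 36.8 and 36.4 CPM in untreated enteroids (log2 fold change 2.90 ± 0.11, edgeR adjusted p = 1.21e-12). Slc6a19, a transporter of neutral amino acids, and Slc5a1, the sodium-glucose transporter, stood at 2.64 ± 0.16 and 1.21 ± 0.09. Fabp2, the intestinal fatty acid binding protein, went the other way, with 6.09, 4.70 and 7.46 CPM against 41.5, 44.7 and 44.1 CPM. Lct, Mme and Mep1a, which encode lactase and surface peptidases, fell by 1.24, 1.21 and 1.07 on the log2 scale. Enpep, also a peptidase, was called at -0.66 but not under 8 of the alternatives tried. Alpi, intestinal alkaline phosphatase, and Fabp1, a fatty acid binding protein, were near, at -0.13 and -0.19. Without the butyrate library and the butyrate + IL-13 library that were high in Lars2, both were called lower, at -0.37 and -0.38 (edgeR adjusted p = 0.01 and 0.022).

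Bile acid genes of the ileum were mostly raised. Of 8 tested, 5 rose, 2 fell and Cyp27a1 was near, where 28.2% of all tested genes rose and 31.5% fell. Slc51a and Slc51b, the subunits of the basolateral exporter, stood at 1.91 ± 0.10 and 2.94 ± 0.13, and Slc51b had 47.6, 52.0 and 58.9 CPM with both agents against 6.77, 7.09 and 6.82 CPM without. Nr1h4, the bile acid receptor FXR, rose by 0.59 and Abcc3, an export pump, by 0.47. Slc10a2, the apical importer, was lower at -0.71 ± 0.23 (edgeR adjusted p = 0.0132), a call lost without untreated replicate 1 (-0.48) or butyrate + IL-13 replicate 2 (-0.55). Fabp6 was not analysed here.

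Of the genes of butyrate transport and action, Slc16a3, Bsg and Slc16a1 rose, while 7 histone deacetylases were lower, some of them by little. In the list of 16 tested transporter, receptor and deacetylase genes, 3 rose, 9 fell and 2 were near. Of those that fell 7 were deacetylases, and the other two were Ffar2 and Ffar3, receptors of short-chain fatty acids. Slc16a3, a monocarboxylate transporter, had 430, 529 and 544 CPM with butyrate + IL-13 and 150, 123 and 146 CPM in untreated enteroids (log2 fold change 1.84 ± 0.13, edgeR adjusted p = 1.15e-09). Bsg, the chaperone of these transporters, and Slc16a1 stood at 0.95 ± 0.09 and 0.40 ± 0.10. Hdac7 and Hdac6 fell by 1.82 and 1.43 on the log2 scale. The class I enzymes moved little, at -0.57 for Hdac1, -0.30 for Hdac2 and -0.24 for Hdac3, and Hdac3 was not called without untreated replicate 2 or without butyrate + IL-13 replicate 1 or 2. Of 19 genes of fatty acid oxidation and ketone body use, 10 rose and 4 fell (median 0.42). Beside this list and the butyrate list above, the shares of all tested genes were 28.2% higher, 31.5% lower and 25.2% near. Oxct1, which lets cells burn ketone bodies, had 1199, 1059 and 1239 CPM against 381, 351 and 335 CPM.

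Several stress and repair genes also stood apart from the untreated level. Of all tested genes 28.2% rose, 31.5% fell and 25.2% were near, and the cholesterol synthesis list below lay close to those shares. Of 20 unfolded protein response genes 11 rose, 5 fell and 4 were near. Those with the smallest p encode the transcription factors and regulators Ddit3, Trib3, Atf3 and Atf4. Ddit3 had 272, 283 and 279.5 CPM with butyrate + IL-13 and 47.3, 57.2 and 56.9 CPM in untreated enteroids (log2 fold change 2.37 ± 0.10, edgeR adjusted p = 2.82e-12). The 5 that fell, Pdia4, Pdia6, Sdf2l1, Manf and Creld2, encode proteins of folding in the endoplasmic reticulum. Without untreated replicate 2 or butyrate + IL-13 replicate 2, 3 members were called lower. Of 14 regenerative epithelium genes 7 rose and 3 fell. Areg and Ereg, ligands of the EGF receptor, stood at 1.92 ± 0.07 and 2.30 ± 0.16, while Clu, the marker of revival stem cells, was at 11.7, 15.1 and 18.8 CPM against 110, 113 and 101 CPM (log2 fold change -2.82 ± 0.14, edgeR adjusted p = 1.11e-11). Of 13 antimicrobial genes 4 rose and 6 fell, with Saa1, an acute phase protein, at 4.90 ± 0.54 and Reg3a, a bactericidal lectin, at -4.24 ± 0.83. Cholesterol synthesis genes were split, 8 higher, 7 lower and 6 near of 21, with a median of 0.05; Msmo1, a sterol oxidase, rose by 0.94 on the log2 scale.

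**Figure D3:**
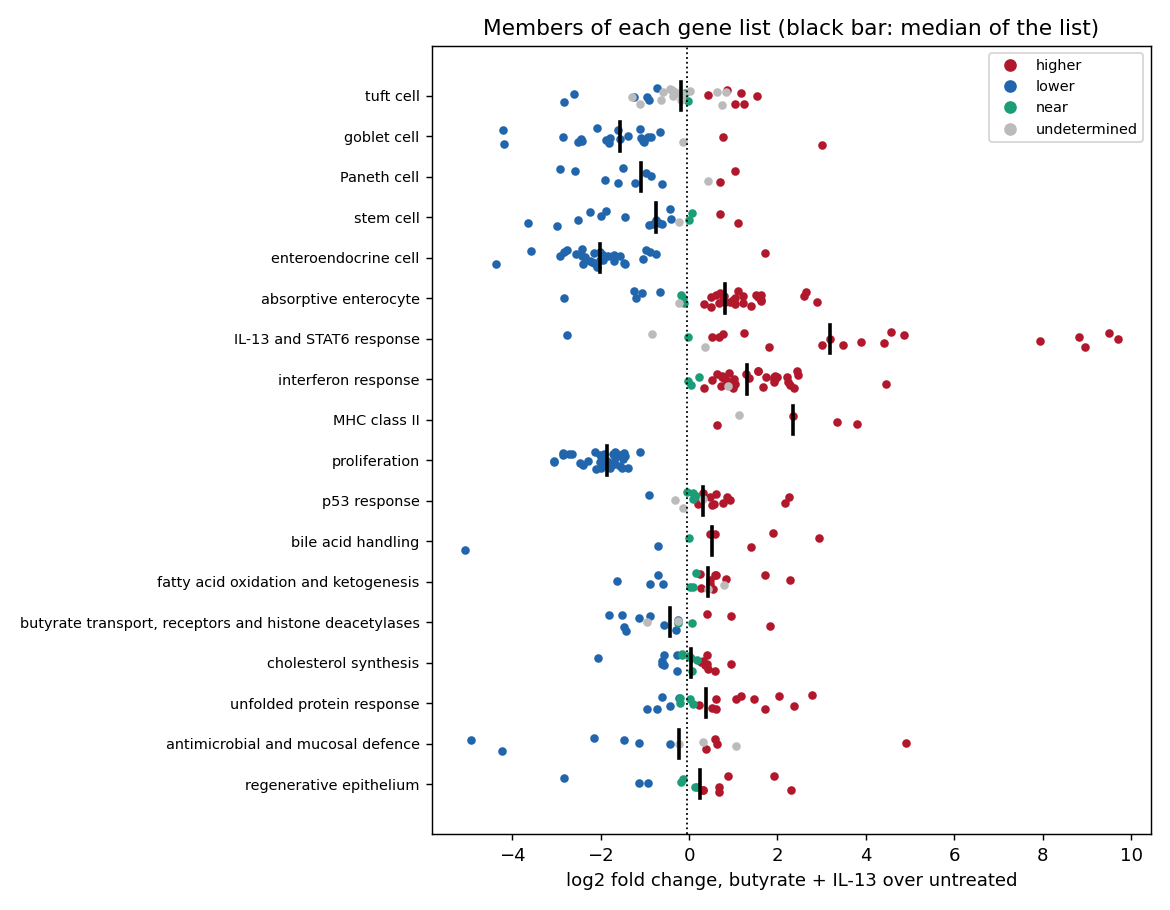
Each point is a tested member of a gene list, placed by its log2 fold change of butyrate + IL-13 over untreated (x axis) and coloured as higher, lower, near or undetermined; black bars are list medians and the dotted line is the median of all tested genes, -0.05. The IL-13 and STAT6 list (median 3.18) and the proliferation list (-1.86) lie to either side, and tuft cell genes (-0.19) straddle 0. Chil4, with 0 untreated counts, is drawn at its fitted value, which is not a bound.

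Markers of cell types other than epithelium and immune cells were faint, the immune sum being given above. Of 17 non-epithelial markers in the table, immune ones included, 2 had no count in any butyrate + IL-13 library. The mesenchymal markers summed to 0.0791 to 0.439 CPM with both agents and 0.111 to 0.21 CPM in untreated enteroids, the endothelial ones to 1.02 to 1.12 and 0.499 to 1.05 CPM, and the glial ones to 0.395 to 0.512 and 0.776 to 1.26 CPM.

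The genes near the untreated level included abundant ones. Fth1, Eef2, Eef1a1 and Ugt2b34, picked after their values were seen, were among those with the highest levels. Fth1, the ferritin heavy chain, had 2458, 2559 and 2719 CPM with butyrate + IL-13 and 2532, 2504 and 2361 CPM in untreated enteroids, a log2 fold change of 0.06 (95% interval -0.11 to 0.24). Eef2 and Eef1a1, elongation factors of translation, stood at 0.11 (-0.07 to 0.29) and 0.07 (-0.09 to 0.23). Ugt2b34, a glucuronosyltransferase, stood at 0.04. Of the 3462 near genes, 2832 were near with IL-13 alone and with butyrate alone as well.

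Genes that a single agent had moved were then followed into the enteroids given both. These comparisons share the untreated libraries, so shared directions between them are given as counts only. With IL-13 alone 43.5% of all tested genes were called, 1389 of them (10.1%) at 2-fold or more, and 1194 of them were called at 2-fold or more in the same direction with both agents. A further 49 were called in that direction by under 2-fold, 17 were called in the opposite direction, 127 were undetermined and 2 were near. With butyrate alone 7.90% were called, 292 of them (2.12%) at 2-fold or more, of which 238 were called at 2-fold or more in the same direction, 9 by under 2-fold, 9 in the opposite direction, and 36 were undetermined. Of the 292, 0 were near.

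**Figure D4:**
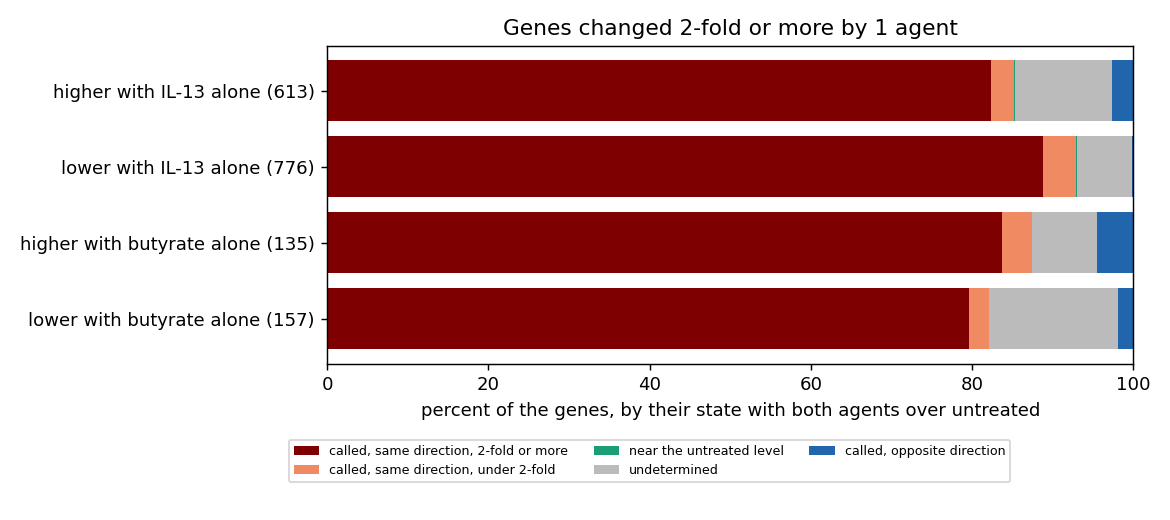
Horizontal bars show the genes called at 2-fold or more with IL-13 alone (613 higher, 776 lower) or with butyrate alone (135 higher, 157 lower), split by their state with both agents over untreated, as percent of each bar. Most of each bar is the same direction at 2-fold or more (505, 689, 113 and 125 genes), and the green part, near the untreated level, holds 1 gene in each of the IL-13 bars.

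A gene was said to have returned when it was called at 2-fold or more with a single agent, called in the other direction when both agents were compared with that agent, and near untreated with both. Of all tested genes, 21.2% were called between both agents and IL-13 (9.85% higher and 11.3% lower with both), and 47.7% between both agents and butyrate (22.9% and 24.9%). By this rule 2 genes returned after IL-13 and 0 after butyrate. Genes whose interval was wider than the 1.5-fold bound could not meet the rule at any level. The 127 undetermined genes after IL-13 and 36 after butyrate may therefore hold others that returned. Dclk1 was one of these undetermined genes, and it met the rule at a bound of 2-fold. Slc37a2, a sugar phosphate exchanger of the endoplasmic reticulum, had 14.4, 11.9 and 15.1 CPM with butyrate + IL-13, 44.9, 27.2 and 26.1 CPM with IL-13, 12.4, 13.3 and 15.2 CPM with butyrate and 16.3, 12.7 and 12.7 CPM in untreated enteroids. The treated and untreated values overlap, and only the IL-13 libraries stand above. Without IL-13 replicate 1, its highest library, Slc37a2 no longer met the rule. The log2 fold change was -0.01 with both agents over untreated (95% interval -0.41 to 0.39), 1.23 with IL-13 over untreated (edgeR adjusted p = 2.45e-05) and -1.24 with both over IL-13 (edgeR adjusted p = 0.000141). H2-Q10, an MHC class I gene with close copies, had 36.5, 47.4 and 60.9 CPM with both agents, 25.2, 23.6 and 25.9 CPM with IL-13, 58.1, 48.8 and 77.1 CPM with butyrate and 57.3, 48.2 and 53.1 CPM in untreated enteroids. Its log2 fold change over untreated was -0.13 (-0.47 to 0.21), and -0.33 (edgeR adjusted p = 0.034) without the libraries high in Lars2, so that it was then called lower.

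These counts of returned genes depended on the libraries and on the bounds of the rule. Without untreated replicate 1 they were 4 after IL-13 and 3 after butyrate, and without butyrate + IL-13 replicates 1, 2 and 3 in turn they were 5 and 2, 3 and 2, and 1 and 0. Without untreated replicate 2, 1 gene returned after butyrate.

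The genes that crossed the untreated level were few, and those named were chosen after their values were seen. Lbh, a transcription cofactor, had 42.4, 33.1 and 44.7 CPM with butyrate + IL-13, 136, 121 and 133 CPM with IL-13, 36.1, 30.8 and 34.8 CPM with butyrate and 55.4, 59.0 and 57.5 CPM in untreated enteroids. It was thus higher with IL-13 and lower with both, at a log2 fold change of -0.52 ± 0.11 (edgeR adjusted p = 0.000393). Rasal1, a Ras GTPase-activating protein, went the other way, at -1.28 with IL-13 and 0.77 with both (edgeR adjusted p = 0.00403). Spib, an Ets factor of tuft cells, was at 2.14 with IL-13 and -0.72 with both, a call lost without the third butyrate + IL-13 library (-0.42, edgeR adjusted p = 0.18). Lyz1, the lysozyme of Paneth cells, had 441, 376 and 271 CPM with both agents, 229, 186 and 289 CPM with IL-13, 2343, 2084 and 1875 CPM with butyrate and 750, 854 and 924 CPM in untreated enteroids. Every butyrate library lay above, and every library given both agents below, the untreated ones (log2 fold change with both -1.22 ± 0.16, edgeR adjusted p = 3.45e-06). Lgr5, the receptor that marks crypt stem cells, behaved alike, at 1.52 with butyrate and -1.87 ± 0.36 with both. Capn13 crossed upward, at -1.03 with butyrate and 5.20 with both.

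**Figure D5:**
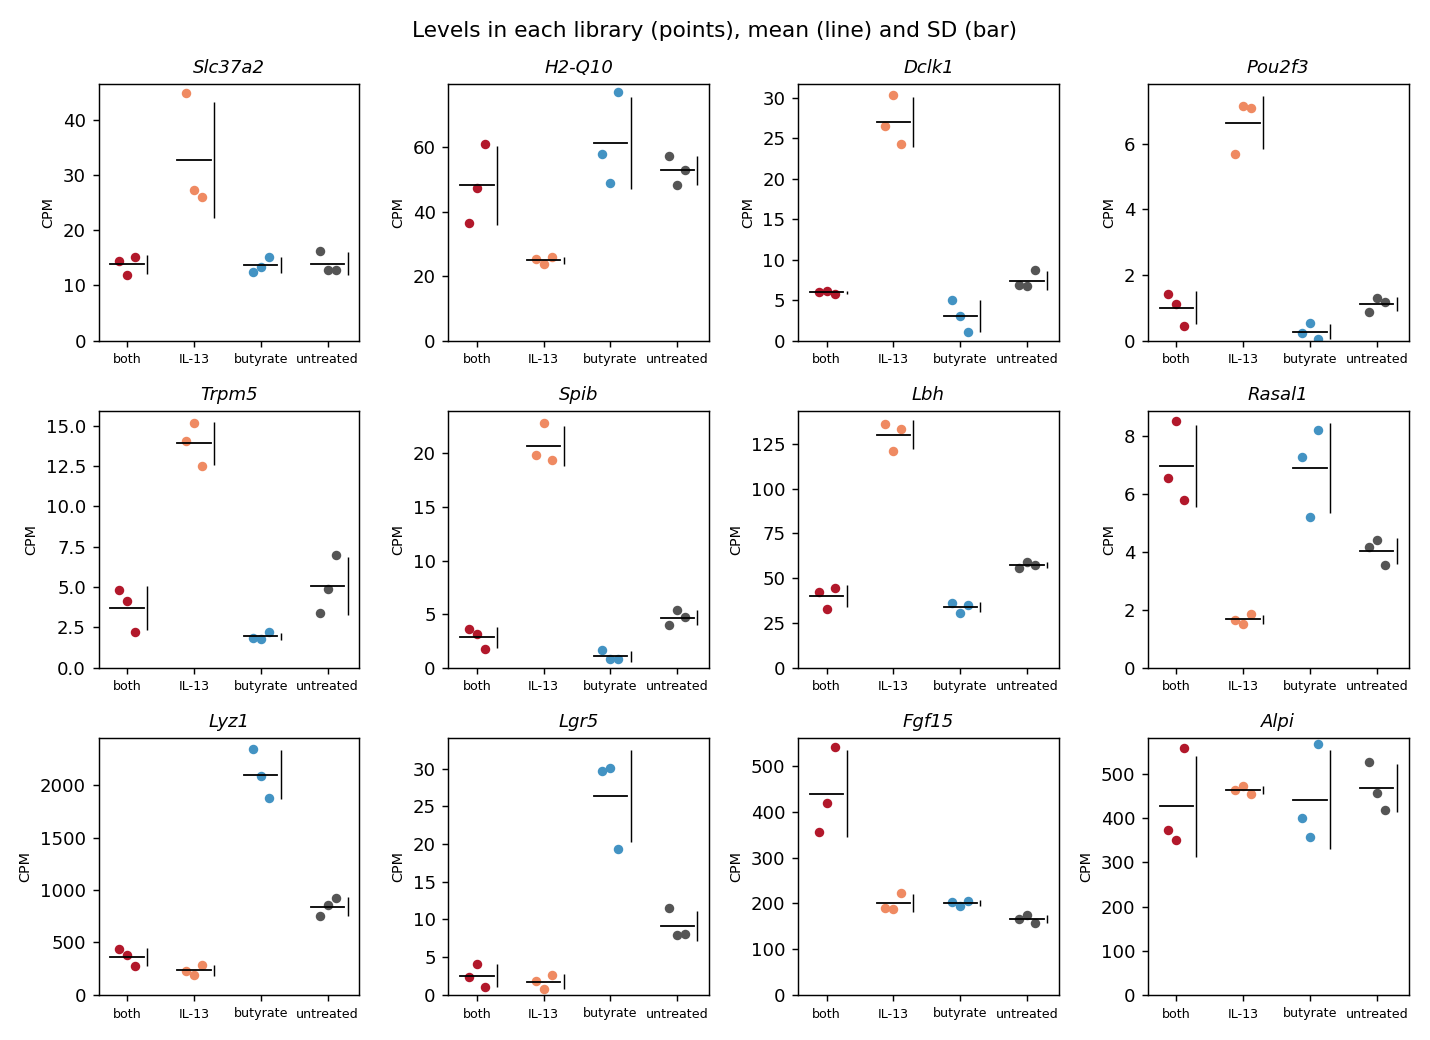
CPM of 12 genes in each library (points) of the groups given both agents, IL-13, butyrate and none, with group means (lines) and SD (bars). Slc37a2 and H2-Q10 show both agents level with untreated and IL-13 apart, Dclk1, Pou2f3 and Trpm5 are highest with IL-13, Lyz1 and Lgr5 are highest with butyrate, and Fgf15 is highest with both agents.

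A small set of genes changed by 2-fold or more with both agents while lying near the untreated level under each agent alone. Of the 4560 genes near under each single agent, 1 was such a riser and 8 were such fallers. The riser was Fgf15, the ileal hormone that curbs bile acid synthesis in the liver. It had 355, 420 and 542 CPM with butyrate + IL-13, 190, 189 and 223.5 CPM with IL-13, 202, 193.5 and 206 CPM with butyrate and 165, 174.5 and 156 CPM in untreated enteroids. All 3 libraries given both agents stood above the other 9, the one high in Lars2 highest (log2 fold change 1.41 ± 0.12, edgeR adjusted p = 1.18e-08). Set against each single agent it was 1.13 higher on the log2 scale in both cases. Of the fallers, Zfp459, a zinc finger gene, had 0.949, 1.99 and 1.54 CPM with both agents and 4.75, 4.17 and 2.83 CPM without (log2 fold change -1.40 ± 0.30, edgeR adjusted p = 0.000459). Dnase1, a secreted nuclease, stood at -1.22 ± 0.26, and Sorcs2, a sorting receptor, at -1.16 ± 0.17. Inka2, Arhgdig and Ddias stood at -1.14, -1.10 and -1.08, all close to the 2-fold line that defines the set.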

How the data were processed

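RNA was measured in 12 libraries of ileal enteroids, 3 per group, by directional poly(A) sequencing per the labels' protocols. The deposited table gave whole-number read counts per gene, not normalised by the authors, on the build mm10 named in the submitters' processing notes. The table also held, per the file headers, the authors' p-value columns and log2 fold change columns for untreated against IL-13, which were not used here, and kept only rows whose corrected p there was below 1. The untreated and IL-13 groups together held 1 count or more in each row, so a gene counted only in libraries given butyrate would be absent. In 1019 rows all butyrate and all butyrate + IL-13 libraries had 0 counts. Not given in the sources used here were aligner, counter and strand setting.

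The 18092 rows became 18068 genes after rows of 23 genes were summed, and 17799 rows (98.4%) matched the annotation that gave current symbols. Counts were fitted with edgeR 4.0.16 in R 4.3.3 (glmQLFit, TMM, filterByExpr) over all 12 libraries, with a coefficient per group and no block, since same-numbered libraries did not deviate together. The filter removed 4318 genes, the biological coefficient of variation was 10.2%, and 8 residual degrees of freedom remained. Intervals at 95% come from the standard error of that fit. Alternatives were RLE scaling, DESeq2 1.42.0, other filters, thinning, a fit of the compared groups only, a replicate block, other interval bounds, and leaving out libraries. Replicates differed by more than sampling noise and were counted as separate samples.

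The comparison, its 23 gene lists and the libraries high in Lars2 were chosen with earlier results of these data known. Named genes were up to 12 per direction with the largest change, a mean of at least 50 counts and groups that did not overlap, the 4 members of each list with the smallest adjusted p, genes that returned or changed only with both agents, and a fixed set; uninformative symbols were skipped. Members named because a count was small, and genes that crossed the untreated level, were chosen after their values were seen. Python 3.11.15, pandas 2.3.3, scipy 1.17.1 and matplotlib 3.10.9 were used. Reads were not analysed here, and some genes that the rules pick are not reported here.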

Additional observations from a re-analysis of the deposited data

How the results depend on the processing

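Under RLE scaling 4111 genes were higher and 4096 lower, and under DESeq2 4167 and 4131; the share of higher genes among those called was 47.3% in the reported fit and 46.5% to 50.9% over the alternatives. The more frequent direction thus turned with the scaling, and also without butyrate + IL-13 replicate 1 (3999 higher, 3877 lower) or 3 (3772 and 3637). Between the reported fit and each alternative, 0 genes called in both had opposite directions. Leaving out each of the 12 libraries in turn gave 3506 to 4059 higher, 3637 to 4499 lower and 3282 to 3659 near genes, 1 to 5 returned after IL-13 and 0 to 3 returned after butyrate. With a narrower bound on the interval, 1300 genes were near and 0 returned after IL-13. With a bound of 2-fold, 19 returned after IL-13 and 12 after butyrate, and with single-agent changes of 1.5-fold or more, 22 and 10. Without both libraries high in Lars2 1 returned after each agent. The replicate block gave 3834 higher, 4275 lower and 3497 near genes, with 2 and 0 returned, and same-numbered libraries had correlations of their deviations of 0.081, -3e-04 and -0.15, with 1 of 3 correlating best with its own number. Few counts limit the faint genes: a gene left undetermined is not shown to be unchanged.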
